A study of Sus scrofa with 6 samples.

Results

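The 19 genes described here are those whose messenger RNA stood clearly higher in early luteal than in post-ovulatory oviduct ampulla of the pig (Sus scrofa). They were selected on the counts themselves. Counts were scaled to CPM (the count over the library total, times 1e6), and a gene was kept where its lowest early luteal CPM was at least 1 and at least 2 times its highest post-ovulatory CPM. Of the 35670 rows of the table, 15623 carried a gene symbol, and 21 of these met the rule. SULT1E1 and APOD met it and were left out by name, and PRLR, also named for leaving out, did not meet it. The limit of 300 genes was not reached. Because the selection used the difference between the stages, that difference is given below as a description and no test of it is offered for any of the 19 genes.

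The study compared 2 stages of the oestrous cycle in ampulla tissue of female pigs, early luteal (3 libraries) and post-ovulatory (3 libraries). Per the labels, total RNA went into stranded libraries of messenger RNA. No treatment, allele, breed or age is given in the sources used here, nor whether each library came from its own animal, so a p-value here speaks of how far these libraries scatter, and that scatter may be technical. Every set of values below is given in the order of replicates 1, 2 and 3 of a stage.

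The ampulla is the wide upper segment of the oviduct, where fertilisation takes place and the early embryo begins its journey. It is lined by ciliated and secretory epithelial cells over a stroma with blood and lymphatic vessels, wrapped in smooth muscle. After ovulation the follicles turn into corpora lutea, circulating oestrogen declines and progesterone climbs, and the epithelium is known to alter its secretion and its ciliary activity in response to these steroids.

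Library totals were 14056141, 8342520 and 14785020 counts in the early luteal stage and 14716272, 7370723 and 30954222 counts in the post-ovulatory stage. Markers of the labelled tissue were present: the 13 measured genes of ciliated epithelium summed to between 2683 and 3374 CPM in early luteal libraries and between 2400 and 3886 CPM in post-ovulatory ones. Early luteal replicate 2 stood apart from the rest, at 175.8 on the first principal component (55.9% of the variance), where the other 5 libraries lay between -51.0 and 2.4. The 10 stroma markers summed to 1503, 1110 and 1229 CPM in early luteal libraries, against 2317, 3219 and 1588 CPM in post-ovulatory libraries, and the 2 stages did not overlap. Sums of the other marker lists overlapped between the stages, that of smooth muscle included. The 9 measured markers of steroid-producing ovarian cells summed to at most 4.77 CPM in any early luteal library and 6.51 CPM in any post-ovulatory one, with FSHR and INSL3 at 0 throughout. In bulk tissue, a different number of cells of a type and a different amount of RNA per cell cannot be told apart.

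**Figure D1:**
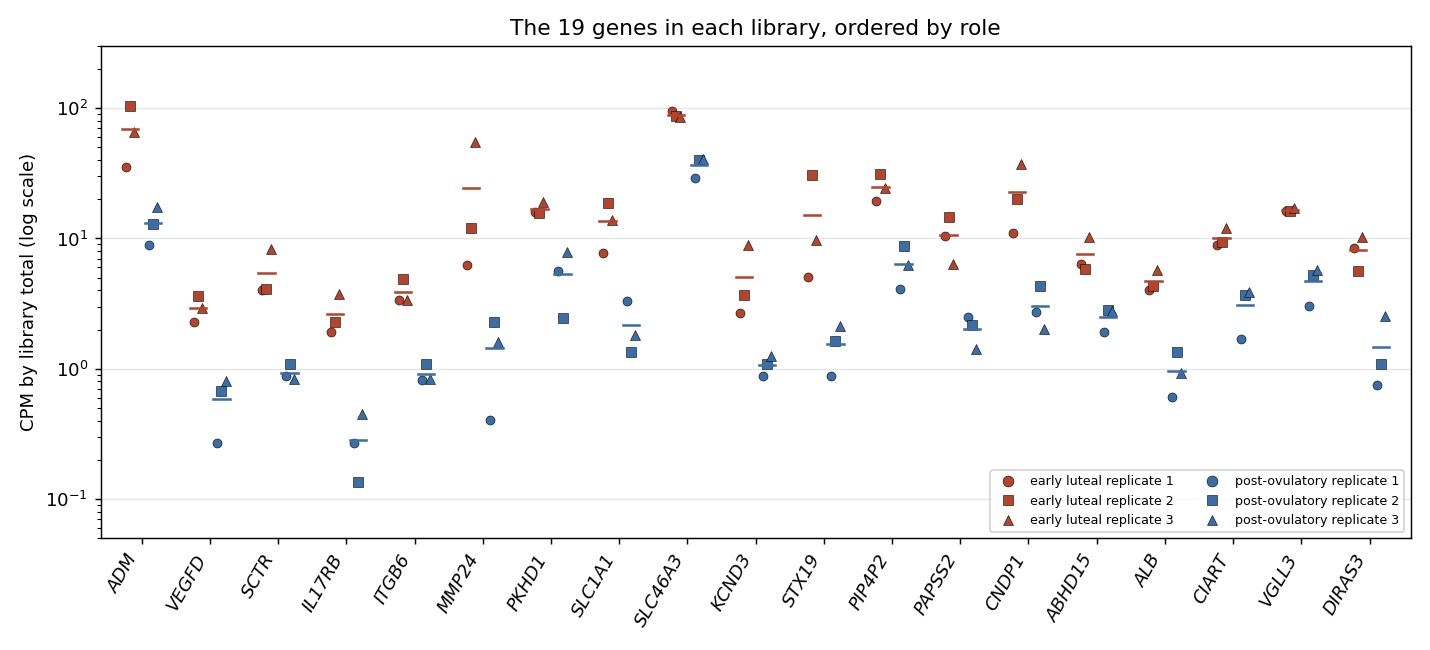
CPM by library total (log axis) of the 19 genes in each of the 6 libraries, with early luteal values in red left of post-ovulatory values in blue; symbols mark the replicate and bars the mean of 3. MMP24 spans 6.26 to 55.3 CPM among early luteal libraries, while VGLL3 spans 16.2 to 17.2 CPM.

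Across the 19 genes, the early luteal mean was between 2.42 and 17.0 times the post-ovulatory mean, with a median of 4.99. The lowest early luteal value was between 2.01 and 4.25 times the highest post-ovulatory value, with a median of 2.37. By the same measure 0.134% of all rows with a symbol met the rule, and 0.262% (41 rows) met its mirror image, with every post-ovulatory library at least 2 times every early luteal one. The 19 genes were not alike in how steady they were within the early luteal stage. In 6 genes the highest early luteal library was under 1.5 times the lowest (VGLL3, SLC46A3, PKHD1, CIART, ALB and ITGB6), and in 4 it was over 3 times the lowest (MMP24, STX19, CNDP1 and KCND3). Replicate 1 gave the lowest early luteal value for 13 of the 19 genes, and replicate 3 gave the highest for 11. Among post-ovulatory libraries, replicate 1 was the lowest for 13 genes and replicate 3 the highest for 10.

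**Figure D2:**
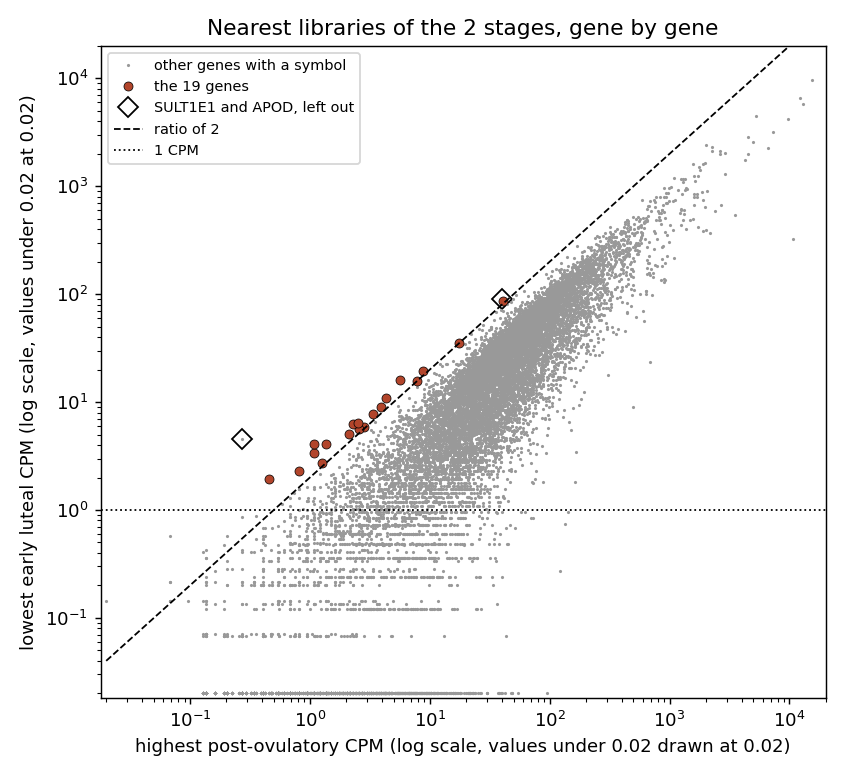
Lowest early luteal CPM (vertical, log axis) against highest post-ovulatory CPM (horizontal, log axis) of the genes with a symbol that reached 0.1 CPM on either axis. The 19 genes (red) lie above the dashed line of a ratio of 2 and the dotted line of 1 CPM, and the open diamonds are SULT1E1 and APOD, the second of which surrounds SLC46A3.

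Among the secreted signals and their receptors, adrenomedullin and vascular endothelial growth factor D were the ligands, and the secretin receptor and an interleukin 17 receptor chain were the receptors. ADM (ENSSSCG00000013408, chr2:49229223-49231521; here and below the span is the whole gene in RefSeq on Sscrofa11.1) encodes adrenomedullin, a peptide that relaxes blood vessels. It had 35.4, 105 and 66.1 CPM in early luteal libraries, against 8.83, 13.02 and 17.5 CPM in post-ovulatory libraries. Replicate 2, the library that stood apart, was the highest, and replicate 1 came closest to the post-ovulatory range. The means were 68.7 ± 34.7 CPM in the early luteal stage and 13.1 ± 4.32 CPM in the post-ovulatory stage (SD, n = 3 each), a ratio of 5.24. The receptor core that binds adrenomedullin, CALCRL, lay the other way, with 7.68, 6.83 and 4.67 CPM in early luteal libraries and 9.58, 20.8 and 10.4 CPM in post-ovulatory ones. Its log2 fold change was -1.06 ± 0.46 (SE), with an adjusted p of 0.685 by edgeR's quasi-likelihood test with Benjamini-Hochberg adjustment. RAMP2, the accessory chain that turns this receptor towards adrenomedullin, overlapped between the stages (log2 fold change -0.73 ± 0.50, adjusted p = 0.761 by edgeR).

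VEGFD (ENSSSCG00000012135, chrX:11893254-11933923), a growth factor for lymphatic vessels, had 2.28, 3.60 and 2.91 CPM in early luteal libraries, against 0.272, 0.678 and 0.808 CPM in post-ovulatory libraries. The early luteal values sat close together, within 1.58 times of each other, and the post-ovulatory libraries together held 34 counts of it. Its mean was 4.99 times higher in the early luteal stage. The related ligand VEGFC was lower in every early luteal library, with 6.90, 1.44 and 4.06 CPM against 8.09, 14.8 and 15.3 CPM in post-ovulatory libraries (log2 fold change -1.65 ± 0.57, adjusted p = 0.677 by edgeR). Their shared receptors FLT4 and KDR overlapped between the stages. Stroma markers, whose sum was lower in all early luteal libraries, lay opposite to VEGFD, and what part the cell make-up had in these values was not tested.

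SCTR (ENSSSCG00000029536, chr15:31707755-31782193) encodes the secretin receptor, which in bile and pancreatic ducts couples to cyclic AMP and drives fluid and bicarbonate secretion. It had 4.06, 4.08 and 8.25 CPM in early luteal libraries, against 0.883, 1.09 and 0.840 CPM in post-ovulatory libraries. Early luteal replicate 3 was about 2.02 times the other libraries of its stage. The post-ovulatory libraries were nearly level, on 13, 8 and 26 counts. The stage means differed 5.83-fold (5.46 ± 2.42 CPM in early luteal libraries, against 0.936 ± 0.131 CPM in post-ovulatory ones, SD, n = 3 each). CFTR, the chloride channel that the secretin receptor opens in ducts, was also higher in every early luteal library, with 47.2, 55.4 and 31.6 CPM, against 21.1, 18.6 and 10.9 CPM in post-ovulatory libraries. The edgeR test did not call it (log2 fold change 1.42 ± 0.40, adjusted p = 0.632). The ligand gene SCT had at most 0.142 CPM in an early luteal library, which is under the limit of 3 counts, and 0 in all post-ovulatory ones. The anion exchanger SLC4A2 overlapped between the stages, with its lowest value, 4.80 CPM, in early luteal replicate 2.

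IL17RB (ENSSSCG00000037914, chr13:35948248-35963191), a receptor chain for the cytokines IL17B and IL25, was the gene with the widest gap between the stages by the rule's own ratio. It had 1.92, 2.28 and 3.72 CPM in early luteal libraries, against 0.272, 0.136 and 0.452 CPM in post-ovulatory libraries. These values rest on few reads: 27, 19 and 55 counts in early luteal libraries and 4, 1 and 14 counts in post-ovulatory libraries. In RefSeq its span overlaps CHDH and ACTR8, so its counts are uncertain where reads from the overlap could be assigned to either gene. CHDH, a choline dehydrogenase, was itself above in all early luteal libraries, at 42.2, 35.1 and 53.6 CPM against 11.01, 27.3 and 22.7 CPM in post-ovulatory libraries. The receptor partner IL17RA and the ligand IL17B overlapped between the stages.

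Of the genes at the cell surface and in the matrix, ITGB6, MMP24 and PKHD1 met the rule. ITGB6 (ENSSSCG00000015886, chr15:67041516-67175409) encodes the epithelial integrin chain that pairs with the alpha chain ITGAV and releases transforming growth factor beta from its latent complex. It had 3.34, 4.92 and 3.38 CPM in early luteal libraries, against 0.815, 1.09 and 0.840 CPM in post-ovulatory libraries. Both stages were tight, though the post-ovulatory values rest on 12, 8 and 26 counts. The means were 3.88 ± 0.896 CPM in early luteal libraries and 0.914 ± 0.149 CPM in post-ovulatory libraries (SD, n = 3 each), a ratio of 4.25. Its partner ITGAV was higher in all early luteal libraries too, at 55.5, 66.9 and 67.4 CPM against 36.1, 40.6 and 34.1 CPM in post-ovulatory libraries. That difference did not pass the edgeR test (log2 fold change 0.79 ± 0.26, adjusted p = 0.664). The other beta chains examined, ITGB1, ITGB5 and ITGB8, overlapped between the stages, as did the ligands TGFB1 and TGFB3.

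MMP24 (ENSSSCG00000040160, chr17:38587230-38636628), a metalloprotease anchored in the plasma membrane and best known from the nervous system, had the widest ratio of stage means, 17.0, and also the widest spread. It had 6.26, 12.1 and 55.3 CPM in early luteal libraries, against 0.408, 2.31 and 1.62 CPM in post-ovulatory libraries. Replicate 3 alone was 4.57 times the next early luteal library, so the mean of 24.6 ± 26.8 CPM (SD, n = 3) has an SD larger than itself. Among early luteal libraries the sum of 10 smooth muscle markers had the same order, but among post-ovulatory libraries it did not: the sums were 1889, 8586 and 13083 CPM in early luteal libraries and 4088, 7997 and 3994 CPM in post-ovulatory libraries. In that sum early luteal replicate 1 was below every post-ovulatory library. MMP24 in the same library was above all of them by selection, since the rule required this of every early luteal value. The part of muscle content in the MMP24 values was not tested. Markers of nerve and Schwann cells summed to 74.7, 63.9 and 69.5 CPM in early luteal libraries, against 81.0, 68.7 and 67.1 CPM in post-ovulatory libraries, and overlapped. The neighbouring gene PROCR had its highest value in the same library as MMP24, at 2.85, 5.63 and 23.1 CPM in early luteal libraries, against 1.16, 5.02 and 1.49 CPM in post-ovulatory libraries, with overlap.

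PKHD1 (ENSSSCG00000001746, chr7:45447354-45925141) encodes fibrocystin, a large membrane protein of primary cilia in kidney and bile duct. It had 15.9, 15.8 and 19.2 CPM in early luteal libraries, against 5.64, 2.44 and 7.88 CPM in post-ovulatory libraries. The early luteal values lay within 1.21 times of each other, and the spread was on the post-ovulatory side. Its ratio of nearest libraries, 2.01, was the lowest of the 19. The related cystic kidney genes PKD1 and PKD2 overlapped between the stages. The 13 markers of ciliated epithelium, measured as a list, had 6 genes higher and 7 lower in the early luteal stage and a median log2 fold change of -0.01.

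Transporters, a channel and genes of membrane traffic made up the largest role group. SLC1A1 (ENSSSCG00000005222, chr1:217366493-217441643), which takes up glutamate, aspartate and cysteine, had 7.76, 18.8 and 13.9 CPM in early luteal libraries, against 3.33, 1.36 and 1.81 CPM in post-ovulatory libraries. Early luteal replicate 2 was the highest and replicate 1 the lowest, and the means differed 6.24-fold (13.5 ± 5.55 CPM in early luteal libraries and 2.17 ± 1.03 CPM in post-ovulatory libraries, SD, n = 3 each). Its relatives SLC1A3, SLC1A4 and SLC1A5 overlapped between the stages. In the list of amino acid and glucose transporters, 3 of 20 tested genes, SLC1A1 among them by selection, were above in every early luteal library. In the same list 3 were below in every one. Over all tested genes, 8.28% were above and 7.94% below in this way. The median log2 fold change of that list was -0.03, beside -0.026 over all 17920 tested genes.

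SLC46A3 (ENSSSCG00000009322, chr11:5983198-6000728), a transporter of the lysosomal membrane, was the gene of the set with the most counts, 3321 in early luteal and 1989 in post-ovulatory libraries together. It had 94.3, 86.9 and 85.9 CPM in early luteal libraries, against 29.2, 40.3 and 40.8 CPM in post-ovulatory libraries. No early luteal library was more than 1.10 times another, and the ratio of means, 2.42, was the smallest of the 19. The relative SLC46A2 had 71.6, 36.0 and 53.5 CPM in early luteal libraries, against 38.9, 21.03 and 29.5 CPM in post-ovulatory libraries, and overlapped (log2 fold change 0.79 ± 0.35, adjusted p = 0.685 by edgeR).

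KCND3 (ENSSSCG00000026680, chr4:108394687-108621514) encodes the pore of a fast-inactivating potassium channel of heart, brain and smooth muscle. It had 2.70, 3.72 and 8.86 CPM in early luteal libraries, against 0.883, 1.09 and 1.26 CPM in post-ovulatory libraries. Like MMP24, it was lowest in early luteal replicate 1 and highest in replicate 3, the order of the early luteal smooth muscle sums given above. Its post-ovulatory order was not that of the sums, and the part of muscle content in these values was not tested. Among its channel subunits, DPP6 had 1.49, 5.99 and 7.85 CPM in early luteal libraries, against 1.63, 1.09 and 0.937 CPM in post-ovulatory libraries, with 1 early luteal library inside the post-ovulatory range (log2 fold change 2.08 ± 0.77, adjusted p = 0.682 by edgeR). The subunits KCNIP1, KCNIP2, KCNIP4 and DPP10 overlapped too. KCNIP3 was lower in every early luteal library, with 2, 0 and 3 counts there against 8, 4 and 21 counts in post-ovulatory libraries. The relative KCND2 overlapped, with its highest value, 18.2 CPM, in post-ovulatory replicate 1.

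STX19 (ENSSSCG00000045484, chr13:165858563-165872678), an epithelial syntaxin of vesicle fusion, had 5.05, 30.7 and 9.81 CPM in early luteal libraries, against 0.883, 1.63 and 2.13 CPM in post-ovulatory libraries. One library, replicate 2, was 3.13 times the next, and the mean of 15.2 ± 13.6 CPM (SD, n = 3) leans on it. Its counts are uncertain where the counting could have shared its reads. Its fusion partners SNAP23 and SNAP29 overlapped between the stages. PIP4P2 (ENSSSCG00000006121), a lipid phosphatase of late endosomes and lysosomes, had 19.4, 31.4 and 24.3 CPM in early luteal libraries, against 4.08, 8.82 and 6.30 CPM in post-ovulatory libraries. Replicate 2 was the highest library in each stage, and the means differed 3.91-fold. Its paralogue PIP4P1 overlapped, with means of 11.96 ± 7.14 CPM in early luteal libraries and 11.8 ± 3.02 CPM in post-ovulatory libraries (SD, n = 3 each).

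Among the metabolic genes, PAPSS2 (ENSSSCG00000010437, chr14:99718299-99816346) makes PAPS, the activated sulfate that sulfotransferases attach to steroids, sugars and proteins. It had 10.5, 14.7 and 6.36 CPM in early luteal libraries, against 2.51, 2.17 and 1.42 CPM in post-ovulatory libraries. Unlike most of the set it was lowest in early luteal replicate 3, and its mean was 5.18 times higher in the early luteal stage (10.5 ± 4.19 CPM, against 2.04 ± 0.559 CPM in post-ovulatory libraries, SD, n = 3 each). The second gene for the same enzyme step, PAPSS1, overlapped, with 51.5, 73.1 and 33.4 CPM in early luteal libraries, against 87.8, 62.7 and 69.1 CPM in post-ovulatory libraries. The oestrogen sulfotransferase SULT1E1, which uses PAPS and was left out of the set by name, was also lowest in replicate 3, with 12.6, 14.0 and 4.53 CPM in early luteal libraries, against 0.272, 0.271 and 0 CPM in post-ovulatory libraries. The genes that carry PAPS into the Golgi or clear its product, SLC35B2, SLC35B3, BPNT1 and BPNT2, overlapped between the stages. PAPSS2 overlaps ATAD1 in RefSeq, which had 37.9, 62.8 and 35.2 CPM in early luteal libraries, against 70.5, 44.4 and 51.1 CPM in post-ovulatory ones.

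CNDP1 (ENSSSCG00000004869, chr1:149523983-149564728) encodes a dipeptidase that in humans splits carnosine in blood plasma. It had 11.03, 20.1 and 37.0 CPM in early luteal libraries, against 2.72, 4.34 and 2.04 CPM in post-ovulatory libraries. The early luteal order, lowest in replicate 1 and highest in replicate 3, was that of MMP24, KCND3 and the smooth muscle sums. It was also that of IL17RB, SCTR, ALB and CIART. The post-ovulatory order of CNDP1, highest in replicate 2 and lowest in replicate 3, was that of the smooth muscle sums too. The part of muscle content in these values was not tested either. Its paralogue CNDP2 lies 599 bases away, and it overlapped between the stages with 53.0, 21.3 and 34.2 CPM in early luteal libraries and 50.01, 40.2 and 44.8 CPM in post-ovulatory ones. ABHD15 (ENSSSCG00000017789, chr12:45752848-45761850), which in mouse fat restrains lipid breakdown together with PDE3B, had 6.40, 5.87 and 10.4 CPM in early luteal libraries, against 1.90, 2.85 and 2.78 CPM in post-ovulatory libraries. Replicate 3 was the highest, the other two were close, and the ratio of means was 3.00. PDE3B and the lipase genes LIPE and PNPLA2 overlapped between the stages.

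ALB (ENSSSCG00000008948, chr8:69643427-69663152), the gene of serum albumin, had 4.06, 4.32 and 5.68 CPM in early luteal libraries, against 0.612, 1.36 and 0.937 CPM in post-ovulatory libraries. The early luteal values were within 1.401 times of each other, and the counts were 177 in early luteal and 48 in post-ovulatory libraries together. Other genes of plasma proteins varied. AFP, GC and TTR had at most 0.240 CPM in any early luteal library and 0.129 CPM in any post-ovulatory one. APOB had no count in early luteal libraries, and AHSG had none in either stage. FGB, a fibrinogen chain, had 3.20, 4.08 and 3.52 CPM in early luteal libraries, against 1.09, 4.61 and 3.94 CPM in post-ovulatory libraries, and overlapped. SERPINA1 overlapped too, with up to 12.2 CPM in an early luteal library and 14.4 CPM in a post-ovulatory one. APOA1 was lower in all early luteal libraries, at 18.1, 4.80 and 20.6 CPM against 25.7, 37.2 and 21.2 CPM in post-ovulatory libraries (log2 fold change -0.98 ± 0.49, adjusted p = 0.697 by edgeR).

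The remaining genes act in the nucleus or in growth control. CIART (ENSSSCG00000038374, chr4:98800849-98809573) encodes a repressor of the circadian clock that opposes the activators CLOCK and BMAL1. It had 8.96, 9.35 and 11.97 CPM in early luteal libraries, against 1.70, 3.66 and 3.91 CPM in post-ovulatory libraries. The early luteal libraries were close to each other, with a mean of 10.1 ± 1.64 CPM, against 3.09 ± 1.21 CPM in post-ovulatory libraries (SD, n = 3 each), a ratio of 3.27. The list of clock genes had 18 tested members, of which 16 were higher in the early luteal stage and the median log2 fold change was 0.48. Of these, 6 were above in every early luteal library (CIART, NR1D1, NR1D2, BHLHE40, BHLHE41 and NPAS2) and 1, CRY1, was below in every one. The shares over all tested genes were 8.28% and 7.94%. CIART is among the 6 and the 16 by selection. None of the 18 was called by edgeR.

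Apart from NPAS2, which stands in for CLOCK as an activator, the clock genes that were above in every early luteal library are repressors like CIART. Clock repressors did not all lie this way, as CRY1, below in every early luteal library, is a repressor too. NR1D1, a nuclear receptor that represses BMAL1, had 25.8, 16.1 and 23.3 CPM in early luteal libraries, against 4.42, 6.24 and 9.66 CPM in post-ovulatory libraries (log2 fold change 1.66 ± 0.41, adjusted p = 0.571 by edgeR). BHLHE40 had 43.2, 33.6 and 41.3 CPM in early luteal libraries, against 16.9, 22.5 and 26.8 CPM in post-ovulatory libraries (log2 fold change 0.83 ± 0.28, adjusted p = 0.664 by edgeR). BMAL1 itself overlapped, with means of 18.6 ± 5.53 CPM in early luteal libraries and 18.3 ± 4.36 CPM in post-ovulatory libraries (SD, n = 3 each). The repressors PER1 and PER2 overlapped as well. The hour at which tissue was collected is not given in the sources used here.

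**Figure D3:**
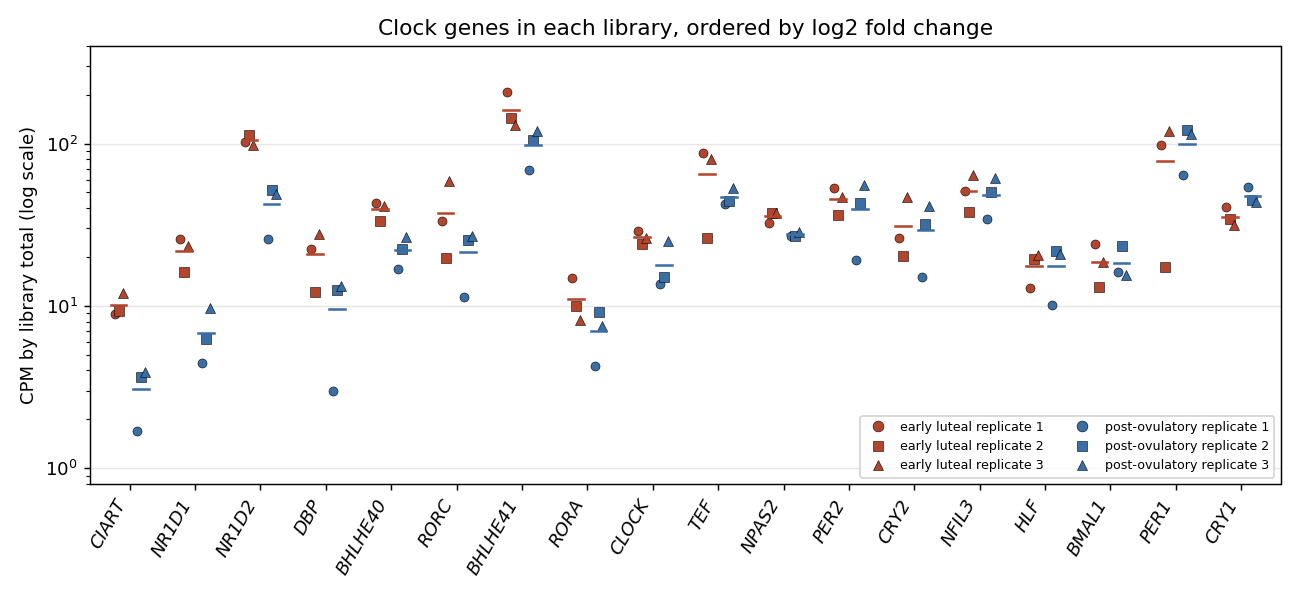
CPM by library total (log axis) of the 18 tested clock genes in each library, early luteal in red left of post-ovulatory in blue, ordered by edgeR log2 fold change from highest to lowest; bars are means of 3. CIART, NR1D1 and NR1D2 at the left do not overlap between the stages, while BMAL1 and PER1 near the right do.

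VGLL3 (ENSSSCG00000032398, chr13:168790024-168839962), a cofactor of the TEAD transcription factors, was the steadiest of the set among early luteal libraries. It had 16.3, 16.2 and 17.2 CPM there, against 3.06, 5.29 and 5.69 CPM in post-ovulatory libraries. The early luteal mean was 16.6 ± 0.547 CPM, and the post-ovulatory mean was 4.68 ± 1.42 CPM (SD, n = 3 each). Among its DNA-binding partners, TEAD2 and TEAD4 were lower in every early luteal library, TEAD4 with 5.69, 0.959 and 3.92 CPM against 8.15, 10.9 and 7.98 CPM in post-ovulatory libraries (log2 fold change -1.40 ± 0.61, adjusted p = 0.685 by edgeR). TEAD1 and TEAD3 overlapped between the stages. The paralogue VGLL4 overlapped, and VGLL2 had no count in post-ovulatory libraries and at most 0.0711 CPM in an early luteal one, which is under the limit of 3 counts.

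DIRAS3 (ENSSSCG00000003797, chr6:144576342-144578820), a small GTPase that restrains growth and is imprinted in humans, had 8.40, 5.63 and 10.3 CPM in early luteal libraries, against 0.748, 1.09 and 2.55 CPM in post-ovulatory libraries. It was lowest in early luteal replicate 2, and without that library its ratio of nearest libraries was 3.29, against 2.21 with it. Taking out the lowest library can only raise this ratio. The mean was 5.54 times higher in the early luteal stage. DIRAS1 was lower in every early luteal library, at 4.20, 0 and 2.98 CPM against 6.66, 5.29 and 5.10 CPM in post-ovulatory ones (log2 fold change -1.33 ± 1.03, adjusted p = 0.781 by edgeR). DIRAS2 and BECN1, a protein that DIRAS3 binds in autophagy, overlapped between the stages.

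ADM and VEGFD also belong to wider lists. In the list of hypoxia-response genes, which holds ADM, 4 of 9 tested genes were above in every early luteal library (ADM, PDK1, EGLN3 and ANKRD37) and none was below in every one, beside 8.28% and 7.94% of all tested genes; ADM is there by selection. The median log2 fold change was 0.62, with 7 genes higher and 2 lower. Of the higher ones, ANKRD37 had 34.4, 42.2 and 23.9 CPM in early luteal libraries, against 8.36, 14.8 and 15.6 CPM in post-ovulatory libraries. VEGFA, 1 of the 2 lower genes, had 33.4, 5.39 and 17.9 CPM in early luteal libraries, against 30.5, 48.3 and 43.7 CPM in post-ovulatory libraries (log2 fold change -1.16 ± 0.52, adjusted p = 0.685 by edgeR). VEGFA overlapped between the stages, and its lowest value was in early luteal replicate 2, the library that stood apart. What part hypoxia had in the values of this list was not tested. The list summed to 521.9, 563.6 and 458.1 CPM in early luteal libraries, against 320.0, 405.0 and 396.7 CPM in post-ovulatory libraries. Without ADM the sums were 486.5, 459.0 and 392.0 CPM in early luteal libraries and 311.2, 392.0 and 379.2 CPM in post-ovulatory libraries, so that the nearest libraries of the stages were level. In the list of growth factors and their regulators, which holds VEGFD, 5 of 35 tested genes, VEGFD by selection, were above and 5 below in every early luteal library (8.28% and 7.94% of all tested genes), with a median log2 fold change of -0.16. None of the genes in either list was called by edgeR.

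Partners and relatives of the 19 genes were chosen with earlier results of these data known, and all are counted here whether or not they moved. Of 87 such genes, 83 had a row and 67 were tested; 2 were above in every early luteal library (CFTR and ITGAV) and 6 were below (CALCRL, VEGFC, TEAD2, TEAD4, DIRAS1 and APOA1), beside 8.28% and 7.94% of all tested genes. The median log2 fold change was -0.21, and the lowest adjusted p by edgeR was 0.632. Early luteal replicate 2, the library that stood apart, was the lowest early luteal library for VEGFC, TEAD2, TEAD4, DIRAS1 and APOA1, though not for CALCRL. Some partners that overlapped, such as IL17RA and PKD1, were lowest there too, while others, such as ITGB1 and ITGB8, were highest there. What part that library had in these counts and in the median was not tested. By name, 2 of the 19 are solute carriers (SLC1A1 and SLC46A3), a family that made up 1.76% of the 11055 rows with a symbol and a lowest early luteal value of at least 1 CPM.

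Over the whole table the edgeR test called 0 of 17920 genes at an adjusted p of 0.05 (a share of 0%), with 1275 at an unadjusted p under 0.05 and a lowest adjusted p of 0.108. All 19 genes passed the filter on low counts, and none was among the called genes. DESeq2 called 177 of 17285 genes (1.02%), 14 of the 19 among them, and limma voom called 0. Since the selection used this contrast, nothing is read from these counts. In simulated data with 3 libraries per stage, edgeR recovered 1 of 50 genes altered 2-fold, 20 of 49 altered 4-fold and 36 of 50 altered 8-fold. Each simulated gene scattered independently, so no simulated library stood apart as a whole, as early luteal replicate 2 did. These shares may therefore not hold for the real libraries.

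Depth sets the width of the counting error around each ratio of nearest libraries. The 95% interval ran from 2.15 to 8.76 around 4.25 for IL17RB, from 2.26 to 3.58 around 2.85 for VGLL3 and from 1.95 to 2.28 around 2.11 for SLC46A3, the gene with the most counts. These intervals cover counting error only, and they are built on the values that the rule required to differ at least 2-fold, so where they lie is no support for the gap. Under TMM scaling 15 of the 19 kept a ratio of 2, while SLC1A1 (1.92), KCND3 (1.96), ADM (1.85) and PKHD1 (1.84) were under it without overlapping between the stages. Taking out the lowest early luteal library of a gene can only raise its ratio, so the rise itself shows nothing, and only its size differs between genes. Without early luteal replicate 1, the lowest library for each of these genes, the ratio was 5.25 for MMP24, 4.64 for CNDP1, 4.6 for STX19, 4.18 for SLC1A1, and 3.78 for ADM. Other genes lowest in that library hardly moved, such as SCTR (3.74 with it and 3.76 without) and ITGB6 (3.08 and 3.12). For PAPSS2, lowest in replicate 3, the ratio was 4.19 without that library and 2.53 with it.

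**Figure D4:**
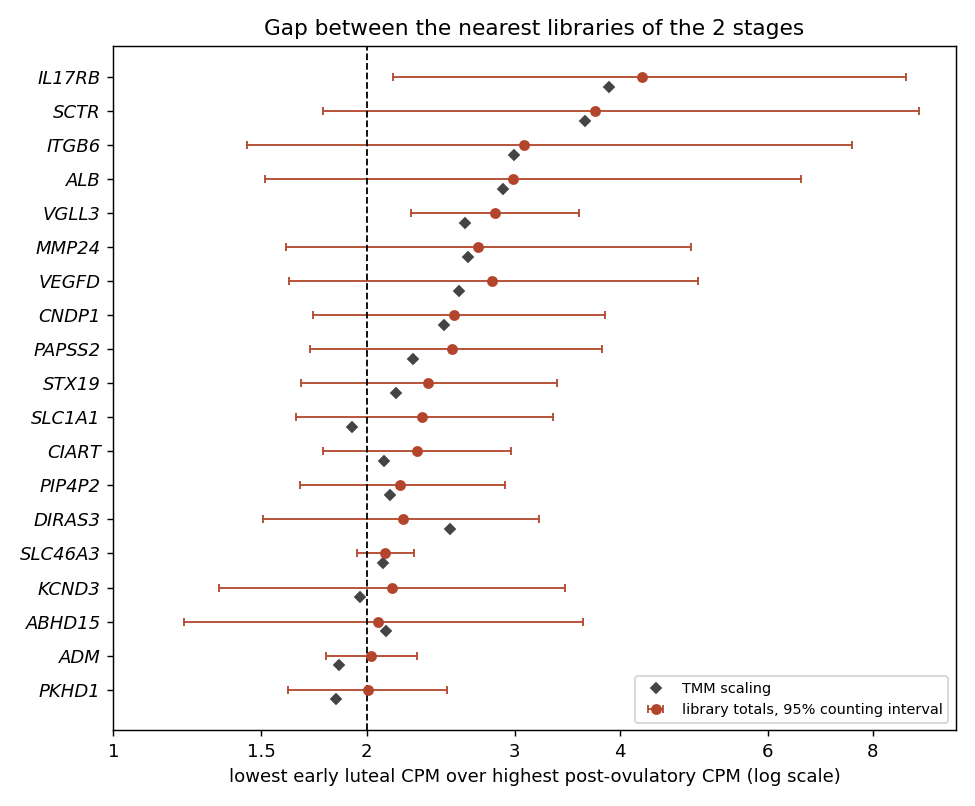
Ratio of the lowest early luteal CPM to the highest post-ovulatory CPM (log axis) for each of the 19 genes, by library totals (red, with 95% counting intervals) and by TMM scaling (grey diamonds). Intervals are wide for genes with few counts such as IL17RB and narrow for SLC46A3; their place follows from the selection. The 4 diamonds left of the dashed line at 2 are SLC1A1, KCND3, ADM and PKHD1.

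The values nearest the threshold show how closely it divides genes. Just inside were DIRAS3 (ratio 2.21), KCND3 (2.15), SLC46A3 (2.11), ABHD15 (2.06), ADM (2.03) and PKHD1 (2.01). Just outside were TCP11L2 (1.95), NR1D2 (1.90), AQP9 (1.89), CTXN3 (1.88), ADPRH (1.87) and CUX2 (1.85). NR1D2, the clock repressor paired with NR1D1, had 102, 114 and 98.6 CPM in early luteal libraries, against 25.7, 52.0 and 49.1 CPM in post-ovulatory libraries. AQP9, a channel for water and glycerol, had 90.9, 83.4 and 67.9 CPM in early luteal libraries, against 12.6, 36.0 and 18.1 CPM in post-ovulatory libraries. A further 21 rows with a symbol met the ratio of 2 but had a lowest early luteal value under 1 CPM. PRLR, the prolactin receptor, was well short of the ratio, with 4.34, 24.6 and 14.8 CPM in early luteal libraries and 3.19, 2.44 and 3.62 CPM in post-ovulatory libraries.

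The 19 genes were spread over the genome. RefSeq placed 18 of them, on 13 chromosomes, and the closest pair, VGLL3 and STX19 on chromosome 13, lay 2917346 bases apart. Of 40 neighbouring or overlapping genes, 36 were tested; 7 were above in every early luteal library, 1 was below and 28 overlapped, beside 8.28% above and 7.94% below over all tested genes. Their median log2 fold change was 0.10. Among the 7 were CHDH, which overlaps IL17RB, and RBMS1, PIGA, PROS1, GLIS3 and GNG12, which lie next to ITGB6, VEGFD, STX19, SLC1A1 and DIRAS3. The one below was AMPD3, next to ADM, with 35.5, 30.3 and 31.3 CPM in early luteal libraries, against 61.8, 61.2 and 62.5 CPM in post-ovulatory libraries (log2 fold change -0.94, adjusted p = 0.594 by edgeR). VEGFD lies 234 bases from PIR, which overlapped between the stages and was lower on average in the early luteal stage.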

How the data were processed

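Ampulla RNA of 3 early luteal and 3 post-ovulatory libraries was analysed. Per the submitters' processing notes, the tools were FastQC 0.11.4, STAR and Trim Galore, with genome build Sscrofa11.1. How reads were counted, on which strand and with which annotation is not given in the sources used here, which leaves overlapping genes uncertain. The authors deposited whole-number counts per Ensembl gene, with no normalization. Its header line is 1 tab short, so each value column was tied to a sample through the position of its header word. The word of early luteal replicate 3 is short of 1 letter but fits no other sample.

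CPM is the count over the library total, times 1e6. Symbols came from a table pairing Ensembl identifiers with symbols, and positions from RefSeq, matched by symbol. A count of 3 was taken as the floor of a library, at most 0.407 CPM. Ratio intervals are exact binomial intervals at 95% for the counts of 2 libraries. No transcript lengths were at hand, so levels are not compared between genes.

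Stages were compared in R 4.3.3 by the quasi-likelihood test of edgeR 4.0.16 on all rows passing filterByExpr, with TMM scaling, two-sided, with Benjamini-Hochberg adjustment over 17920 genes. Log2 fold changes have the early luteal stage on top, and their SE is the size of the change over the square root of F. Scripts were tested on simulated data. Alternatives were DESeq2 1.42.0, limma voom (limma 3.58.1), other scalings and filters, other settings of the rule, a replicate block and each library left out.

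The 19 genes, the lists of processes and markers and the partners were chosen with earlier results of these data known. All 19 genes are named. Genes beside them are members of those lists, partners, neighbours, or the 6 nearest to the threshold on each side. Some of these other genes are counted but not reported here by name.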

Additional observations from a re-analysis of the deposited data

Results flagged for a closer look

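Outside the genes with a symbol, 43 further rows met the same rule, and they were set aside only because the symbol table gave them no name. They made up 67.2% of all rows that met the rule, while rows without a symbol made up 18% of those meeting its mirror image, 23.1% of rows with a lowest early luteal value of at least 1 CPM and 56.2% of the whole table. ENSSSCG00000056704 had 7.68, 5.51 and 8.66 CPM in early luteal libraries, against 0.340, 0.543 and 0.162 CPM in post-ovulatory libraries. ENSSSCG00000036465 had 23.7, 21.1 and 14.7 CPM in early luteal libraries, against 0.612, 0.136 and 1.81 CPM in post-ovulatory libraries. Rows without a symbol took 21.1%, 22.4% and 22.6% of counts in early luteal libraries and 19.8%, 21.5% and 20.8% in post-ovulatory ones. The difference between the shares of named and unnamed rows was not tested.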

How the results depend on the processing

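The 21 rows with a symbol became 23 under TMM scaling or DESeq2 size factors (15 of the 19 genes remained under each) and 25 under upper quartile scaling (17 remained). A ratio of 1.5 gave 74 rows and a ratio of 3 gave 4, 3 of the 19 genes among them; without the need for a symbol 64 rows met the rule. Leaving out each library gave between 34 and 105 rows, with all 19 genes kept by construction, and early luteal replicate 1 gave the 105. For the mirror image, a ratio of 1.5 gave 130 rows and a ratio of 3 gave 8, and leaving out each library gave between 48 and 286. The edgeR count of 0 called genes became 8 with no filter on low counts (30048 rows), and DESeq2 called 177. It stayed at 0 with each of the other settings, leaving out each library and limma voom (1277 at an unadjusted p under 0.05) included. With the replicate number as a replicate block it was 0 (1043 at an unadjusted p under 0.05). After the stage mean of each gene was taken off its log2 CPM, correlations of same-numbered libraries were 0.052, -0.082 and 0.126. The numbers were therefore not taken as pairs, and in these deviations not every library correlated best with its own number. The causes of these shifts were not tested. Depth limits IL17RB most, with 19 post-ovulatory counts in all.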

Other observations

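A list of insulin and FOXO genes, none of which is among the 19, had 7 of 19 tested genes above in every early luteal library (IRS2, FOXO1, FOXO3, PIK3CA, SESN1, CITED2 and PDK4) and none below in every one, beside 8.28% and 7.94% of all tested genes. The median log2 fold change was 0.42, and none was called by edgeR. The list was chosen with earlier results of these data known, so these counts are a description and no test. The sum of the list overlapped between the stages, at 2384 to 3666 CPM in early luteal libraries and 1548 to 2667 CPM in post-ovulatory libraries. CITED2, a transcriptional cofactor, had 25.9, 84.9 and 75.1 CPM in early luteal libraries, against 10.7, 20.4 and 17.6 CPM in post-ovulatory libraries (log2 fold change 2.00 ± 0.50, adjusted p = 0.594 by edgeR). SESN1, a stress-response gene that restrains growth signalling, had 37.7, 31.9 and 29.4 CPM in early luteal libraries, against 16.7, 23.9 and 20.6 CPM in post-ovulatory libraries (log2 fold change 0.70 ± 0.28, adjusted p = 0.685 by edgeR).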
